A study of Homo sapiens with 6 samples.

Results

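The genes described here make, move and sense cholesterol in EndoC-βH1 cells, an insulin-secreting line derived from human pancreatic beta cells. They are 34 of the 26485 gene symbols in the count table, chosen by name as enzymes of cholesterol synthesis, sterol sensors, carriers of cholesterol into and within the cell, and genes of the liver X receptor (LXR) and efflux arm. All 34 passed the filter on low counts. RNA was sequenced from 6 cultures, all of which carried lentiCRISPRv2, a lentiviral vector for Cas9 with an antibiotic resistance gene. In the 3 libraries labelled sgZHX3-3, genotype ZHX3 KO, the vector held a single guide RNA against the first coding exon of ZHX3, a zinc-finger and homeobox repressor. The 3 libraries labelled Empty, genotype WT, carried the vector with no guide. Both groups had been selected with antibiotics and kept as stable lines. The labels call the replicates biological but do not say whether they are separately made lines, so p-values may measure only the spread between cultures of the same line. An effect of this guide other than on ZHX3, or another difference between the lines, cannot be told apart from loss of ZHX3.

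The libraries held 45101454 to 61051884 counts. ZHX3 RNA was higher in the libraries labelled sgZHX3-3, at 167, 180.0 and 183 CPM (counts scaled to library size by TMM factors) in sgZHX3-3 libraries 1, 2 and 3, against 106, 109.6 and 101 CPM in Empty 1, 2 and 3. Each direction given here is therefore drawn from the labels, and the protein was not analysed here. All 8 beta cell markers examined were expressed, and 7 of them were higher in sgZHX3-3, where 7.11% of all tested genes were. The insulin gene INS was not called (log2 fold change 0.19, edgeR adjusted p = 0.219). It had 5771, 6404 and 7118 CPM in sgZHX3-3 libraries 1, 2 and 3, against 6502, 5260 and 5206 CPM in Empty 1, 2 and 3. Endothelial markers summed to at most 0.0802 CPM in any library and the alpha cell hormone gene GCG averaged 0.377 CPM in sgZHX3-3 and 0.190 CPM in Empty. Of 3 hepatocyte markers 1 was higher, APOB, at 269 to 298 CPM in sgZHX3-3 and 169 to 206 CPM in Empty. ALB averaged 0.310 CPM in sgZHX3-3 and 0.394 CPM in Empty, and CYP7A1 had no counts. Of 3 acinar markers 1 was higher, CPA1, at 42.1 to 45.2 CPM in sgZHX3-3 and 33.1 to 38.6 CPM in Empty. PRSS1 and CELA3A had at most 1 count in any library. Empty 2 and 3 stood apart from Empty 1 in stress genes. The summed level of 6 heat shock genes was 646 to 711 CPM in sgZHX3-3, against 722, 1154 and 1339 CPM in Empty 1, 2 and 3. That of 6 targets of NRF2, the regulator of the oxidative stress response, was 417 to 479 CPM in sgZHX3-3, against 719, 1184 and 1276 CPM in Empty 1, 2 and 3. All 6 of these targets were lower in sgZHX3-3, and 1 of the 6 heat shock genes, where 4.98% of all tested genes were.

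Cells build cholesterol from acetyl-CoA through mevalonate, the isoprenoid farnesyl diphosphate, squalene and lanosterol. When membranes of the endoplasmic reticulum run low in sterol, the escort protein SCAP carries the transcription factor SREBP2 (gene SREBF2) to the Golgi, where it is cut free and switches on genes of synthesis and uptake, and the INSIG proteins hold SCAP back when sterol is plentiful. Excess sterol is met instead by LXR, which is activated by oxysterols and induces exporters such as ABCA1. In mouse islets, cholesterol that builds up after loss of ABCA1 is known to impair insulin release.

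Of the 18 enzymes of cholesterol synthesis, 12 rose in sgZHX3-3 and 6 did not pass the test. The difference between the synthesis and efflux genes was not itself tested. Of the 34 genes, 16 were higher and 1 was lower (edgeR, adjusted p below 0.05), where 12.1% of all 16199 tested genes were called, 7.11% higher and 4.98% lower. No synthesis enzyme was lower (0 of 18). At an unadjusted p below 0.05 the counts were 14 higher and 0 lower, and DESeq2 called 13 higher and 0 lower. With all libraries, all 18 had a positive log2 fold change, with a median of 0.29, a minimum of 0.05 and a maximum of 0.49, while the median over all tested genes was -0.0020. The changes were thus small, with the largest 1.40-fold. Of 6 genes of sterol sensing 2 were higher and of 5 genes of uptake, transport and storage 2 were higher. Of 5 genes of LXR and efflux 1 was lower, with a median of -0.08. Every sgZHX3-3 library lay above every Empty library for 14 of the 18 synthesis enzymes. Over all tested genes the groups did not overlap, in either direction, for 32%. In these bulk samples more cells with a given RNA and more of that RNA per cell cannot be told apart.

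**Figure D1:**
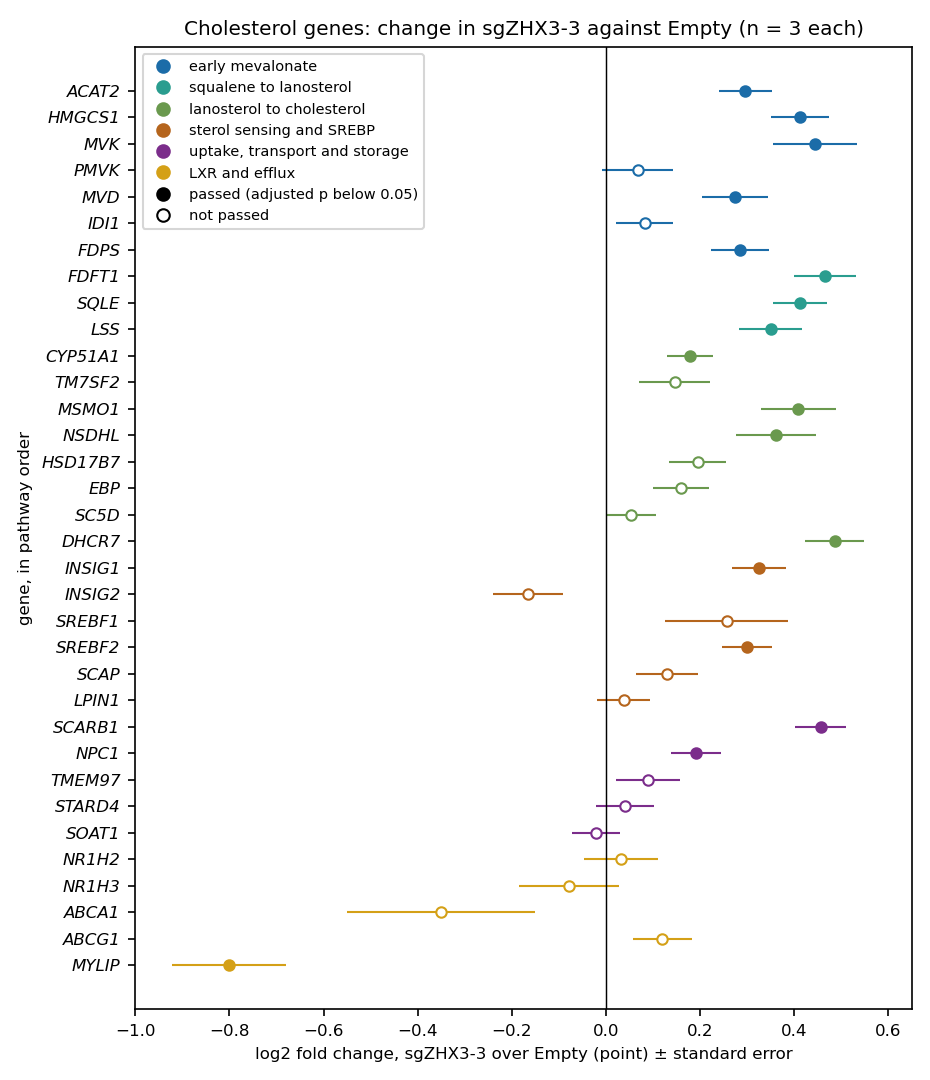
Log2 fold change of sgZHX3-3 over Empty for each of the 34 genes, in pathway order from top to bottom and coloured by role, with its standard error as a bar (3 libraries per group). Filled points passed the test; all 18 synthesis enzymes lie right of 0, and MYLIP lies farthest to the left at -0.80.

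Promoter sequences are shown because 12 of the 18 synthesis genes rose. RefSeq starts (GRCh38.p14) were found for 29 of the 34 genes, not for ACAT2, FDFT1, SQLE, SCARB1 and ABCG1, and for 7 genes that have several starts the first listed was used. The 250 bases before each start were searched on both strands for CCAAT, the box bound by NF-Y, a factor known to act with SREBPs at sterol genes, and for the full sterol regulatory element (SRE) that SREBPs bind. The shares given for tested genes cover the 16796 promoters of genes that passed the count filter. The motifs were chosen with the changes known, and a match describes letters, not binding. CCAAT lay in 12 of 15 synthesis promoters (80%), 8 of which held 2 or more, where 32% of all 35116 promoters and 32.4% of those of tested genes held at least 1, and 9.53% of all held 2 or more. It lay in 6 of 14 promoters of the other genes (42.9%), in 10 of 12 of genes that were higher, in 7 of 16 of genes that did not pass, and in that of MYLIP, which was lower. PMVK, which did not pass, had no match in its window, and nor had CYP51A1 and NPC1, which were higher. IDI1, which did not pass, also had none, but it is among the genes with several starts. Its window, chr10:1056705-1056954, minus strand, lies upstream of IDI1 as placed in GENCODE 29 (1039152 to 1049170). The other starts of IDI1 were not searched for this count, so its lack of a match may depend on the start used. The matches of HMGCS1, DHCR7 and SC5D, which also have several starts, may likewise depend on it. The DHCR7 window, chr11:71448394-71448643, minus strand, lies inside DHCR7 as placed in GENCODE 29 (71428193 to 71452868). The windows of LPIN1 and NR1H2, which held no CCAAT, also lie inside their genes as placed there. EBP and TMEM97 had 3 CCAAT boxes each and did not pass. The full SRE lay in 1 of the 29, that of SREBF2, in 0.125% of all promoters and in 0.101% of those of tested genes. Only exact matches to 1 fixed pattern were counted as the full SRE. A window without a match may therefore still hold a variant of the element, and its absence was not shown. Genes with no start found, SQLE and FDFT1 among them, were not searched. GGGCGG, the GC box bound by Sp1, lay in 27 of the 29, in 60.7% of promoters of tested genes and in 42.6% of all. The E-box CACGTG lay in 4 of the 29, in 7.99% of promoters of tested genes and in 6.34% of all.

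In the sequences, written 5′ to 3′ on the strand of the gene and ending at the base before the start, capitals mark CCAAT or its reverse complement ATTGG, and in SREBF2 also the SRE. They show an enzyme of the first steps, a late enzyme, the master regulator, an enzyme that did not pass and the gene that fell. The HMGCS1 window is chr5:43313413-43313662, minus strand, with boxes from -155 to -151 and from -100 to -96 relative to the start. That of MSMO1 is chr4:165327419-165327668, plus strand, with 4 boxes. That of SREBF2 is chr22:41832855-41833104, plus strand, with the SRE from -134 to -125 and a box from -106 to -102. That of PMVK is chr1:154936720-154936969, minus strand, with none. That of MYLIP is chr6:16128836-16129085, plus strand, with boxes from -109 to -105 and from -68 to -64.
HMGCS1: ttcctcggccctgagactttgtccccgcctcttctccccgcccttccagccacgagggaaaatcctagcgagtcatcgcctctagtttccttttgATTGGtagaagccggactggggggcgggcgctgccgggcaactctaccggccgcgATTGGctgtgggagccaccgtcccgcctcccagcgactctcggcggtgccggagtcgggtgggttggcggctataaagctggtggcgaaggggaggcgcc
MSMO1: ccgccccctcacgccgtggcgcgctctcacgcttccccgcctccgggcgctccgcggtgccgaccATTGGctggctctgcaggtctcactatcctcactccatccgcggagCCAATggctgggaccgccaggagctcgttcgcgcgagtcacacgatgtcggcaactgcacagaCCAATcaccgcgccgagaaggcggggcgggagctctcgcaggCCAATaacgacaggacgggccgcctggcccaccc
SREBF2: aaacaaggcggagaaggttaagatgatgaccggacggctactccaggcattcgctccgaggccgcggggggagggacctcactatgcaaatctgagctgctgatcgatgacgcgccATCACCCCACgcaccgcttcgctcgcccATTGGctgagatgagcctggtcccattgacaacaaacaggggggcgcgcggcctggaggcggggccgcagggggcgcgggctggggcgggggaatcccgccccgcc
PMVK: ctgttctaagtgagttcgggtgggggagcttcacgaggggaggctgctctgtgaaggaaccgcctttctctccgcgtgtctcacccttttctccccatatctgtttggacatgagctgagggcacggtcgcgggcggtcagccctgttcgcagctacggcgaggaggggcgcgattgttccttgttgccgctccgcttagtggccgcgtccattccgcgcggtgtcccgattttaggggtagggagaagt
MYLIP: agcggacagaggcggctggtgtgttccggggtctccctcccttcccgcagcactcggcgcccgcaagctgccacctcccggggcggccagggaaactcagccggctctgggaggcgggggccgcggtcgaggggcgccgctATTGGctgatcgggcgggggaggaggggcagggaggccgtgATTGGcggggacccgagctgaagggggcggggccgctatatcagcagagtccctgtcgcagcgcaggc

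**Figure D2:**
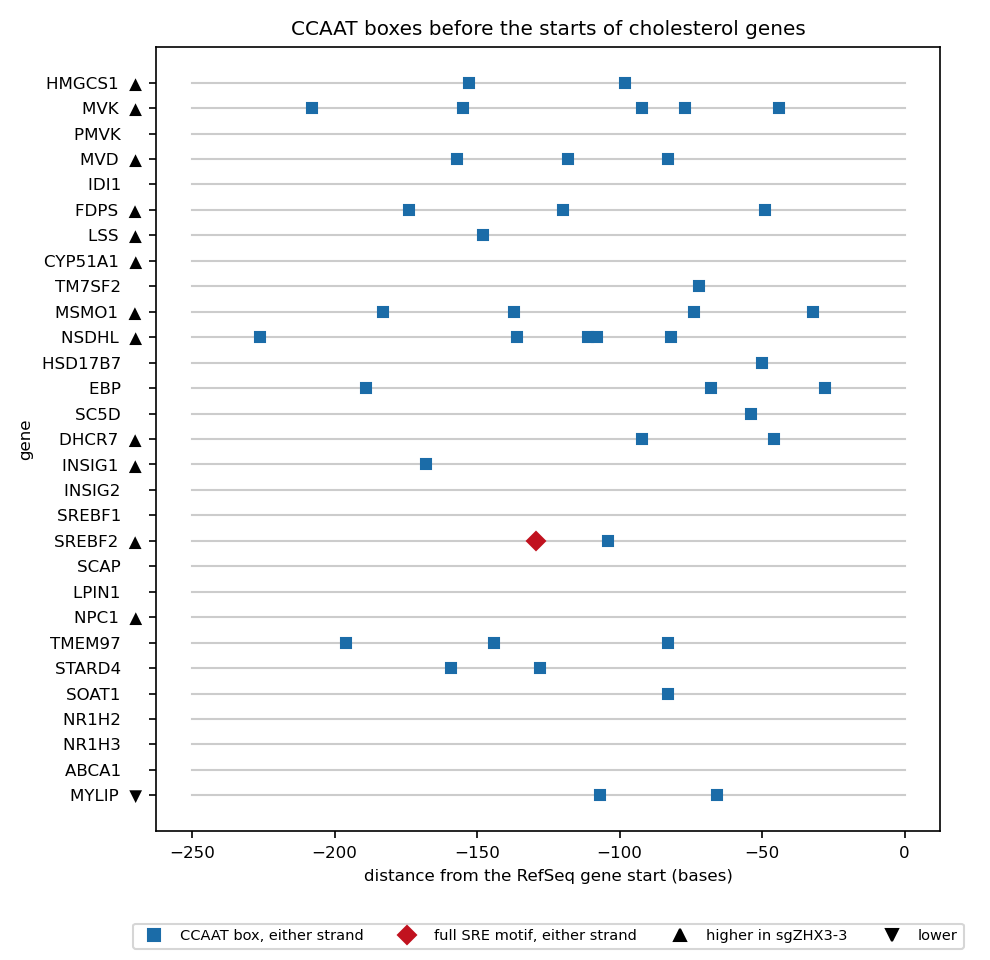
Positions of CCAAT boxes (blue squares) and of the full SRE (red diamond), on either strand, in the 250 bases before the RefSeq start of 29 genes, as distance from the start in bases; triangles beside the names mark genes higher (pointing up) or lower (pointing down) in sgZHX3-3. Of the 15 synthesis genes, listed from HMGCS1 to DHCR7, 12 hold at least 1 box, and SREBF2 holds the SRE.

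The first steps, which turn acetyl-CoA into farnesyl diphosphate, gave 5 higher genes of 7. ACAT2, the cytosolic thiolase that joins acetyl-CoA units, had 55.9, 56.9 and 57.0 CPM in sgZHX3-3 libraries 1, 2 and 3, against 48.3, 45.5 and 44.6 CPM in Empty 1, 2 and 3. HMGCS1, the synthase that makes HMG-CoA, had 305, 314 and 267 CPM in sgZHX3-3, against 225, 218 and 223 CPM in Empty. For both genes the sgZHX3-3 libraries were all higher, and for HMGCS1 the spread lay within sgZHX3-3, whose library 3 was lowest. For ACAT2 the log2 fold change was 0.30 ± 0.0564 (SE; edgeR adjusted p = 0.00551), and for HMGCS1 it was 0.41 ± 0.0613 (adjusted p = 0.00123). In ACAT2, 2247 of 4299 exonic bases are shared with genes on the other strand, including TCP1, so its count is uncertain if strand was not used. MVK, the kinase that phosphorylates mevalonate, had 41.3, 42.2 and 46.5 CPM in sgZHX3-3, against 36.9, 28.8 and 30.0 CPM in Empty, log2 fold change 0.44, edgeR adjusted p = 0.00721. MVD, the decarboxylase that yields isopentenyl diphosphate, had 33.8, 36.0 and 39.0 CPM in sgZHX3-3, against 31.3, 28.7 and 30.0 CPM in Empty, log2 fold change 0.27 (edgeR adjusted p = 0.0249). FDPS, the farnesyl diphosphate synthase, had 104, 109.6 and 117 CPM in sgZHX3-3, against 96.3, 88.7 and 86.6 CPM in Empty, log2 fold change 0.28 (edgeR adjusted p = 0.0115). In these 3 genes the groups did not overlap, and Empty 1 was the highest Empty library. The other kinase of this stretch, PMVK, had 44.6, 51.1 and 50.9 CPM in sgZHX3-3, against 50.3, 42.6 and 47.2 CPM in Empty, and did not pass (log2 fold change 0.07 ± 0.0749 SE). IDI1, which isomerises isopentenyl diphosphate, had 119, 122 and 115 CPM in sgZHX3-3, against 122, 108 and 107 CPM in Empty, and did not pass (log2 fold change 0.08 ± 0.0611 SE). For PMVK and IDI1 the groups overlapped, with Empty 1 inside the range of sgZHX3-3. MVD lost its call without sgZHX3-3 library 2 (adjusted p = 0.0966) or 3 (0.0780), or without Empty 2 (0.124) or 3 (0.0995), by edgeR. FDPS, which also has 8 pseudogenes that could take its reads, lost it without sgZHX3-3 library 2 (0.0575), Empty 2 (0.0625) or Empty 3 (0.0765).

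All 3 enzymes that lead from farnesyl diphosphate to lanosterol were higher. FDFT1, the squalene synthase that commits the pathway to sterols, had 101, 111 and 111 CPM in sgZHX3-3, against 85.3, 74.7 and 74.6 CPM in Empty, log2 fold change 0.46, SE 0.0660, edgeR adjusted p = 0.000883. SQLE, squalene epoxidase and a rate-limiting step, had 206, 210.2 and 205 CPM in sgZHX3-3, against 167, 155 and 146 CPM in Empty, log2 fold change 0.41, SE 0.0568, adjusted p = 0.000749. LSS, the cyclase that closes the sterol rings, had 238, 241 and 275 CPM in sgZHX3-3, against 213, 190.1 and 189.8 CPM in Empty, log2 fold change 0.35, SE 0.0672, adjusted p = 0.00572. The sgZHX3-3 libraries were all higher in each of the 3 genes, SQLE being the tightest of them within sgZHX3-3. Leaving out any 1 library did not end any of these 3 calls.

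Of the 8 enzymes that turn lanosterol into cholesterol, 4 were higher and 0 lower; at an unadjusted p below 0.05 these counts were 6 and 0, and by DESeq2 5 and 0. DHCR7, the reductase of the last step of one branch, had the largest change of the 34 genes upward. It had 71.6, 77.3 and 81.5 CPM in sgZHX3-3 libraries 1, 2 and 3, against 57.8, 52.8 and 54.1 CPM in Empty 1, 2 and 3, log2 fold change 0.49, SE 0.0631, edgeR adjusted p = 0.000516. MSMO1, the methylsterol oxidase, had 169, 169 and 171 CPM in sgZHX3-3, against 148, 120.1 and 115 CPM in Empty, log2 fold change 0.41 (adjusted p = 0.00652). The sgZHX3-3 libraries agreed closely for MSMO1, and Empty 1 lay well above Empty 2 and 3. NSDHL, which acts beside MSMO1 in removing methyl groups, had 14.3, 13.9 and 14.7 CPM in sgZHX3-3, against 11.2, 12.0 and 10.2 CPM in Empty, log2 fold change 0.36 (adjusted p = 0.0168). CYP51A1, the lanosterol demethylase, had 335, 344 and 327 CPM in sgZHX3-3, against 306, 293 and 289 CPM in Empty, log2 fold change 0.18 (adjusted p = 0.0338; 0.27 with an offset for length and GC, added after the data were seen). In both genes the groups did not overlap, but the call was lost without some single libraries. NSDHL lost its call without sgZHX3-3 library 2 (adjusted p = 0.0620) or 3 (0.0517) or Empty 3 (0.0986). CYP51A1 lost it without sgZHX3-3 library 1 (0.0678) or 2 (0.172) and without Empty 2 (0.126) or 3 (0.157). The CYP51A1 call was also lost with libraries scaled by their totals alone (0.0685) and with a block by replicate number (0.0979), all by edgeR. In CYP51A1, 2844 of 3584 exonic bases lie in other annotated genes on the same strand, so its count is uncertain. The remaining 4 did not pass. HSD17B7, a sterol ketoreductase, had log2 fold change 0.19 (edgeR adjusted p = 0.0535) and had no overlap of the groups, with 59.7, 57.4 and 55.1 CPM in sgZHX3-3, against 53.1, 48.5 and 48.8 CPM in Empty. It passed with DESeq2 (0.0375), with RLE factors (0.04999), with a filter of 1 CPM in 3 libraries (0.0491), with the offset (0.00296) and without Empty 1 (0.0120), and 1 of its 2 pseudogenes, HSD17B7P2, is counted separately in the table. EBP, the sterol isomerase, had log2 fold change 0.16 (adjusted p = 0.100) and passed without Empty 1 (0.0110) or with the offset (0.0223). TM7SF2, a sterol reductase, had log2 fold change 0.15 (adjusted p = 0.228). SC5D, the sterol desaturase, had log2 fold change 0.05 (adjusted p = 0.546) and passed with the offset (0.0168).

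**Figure D3:**
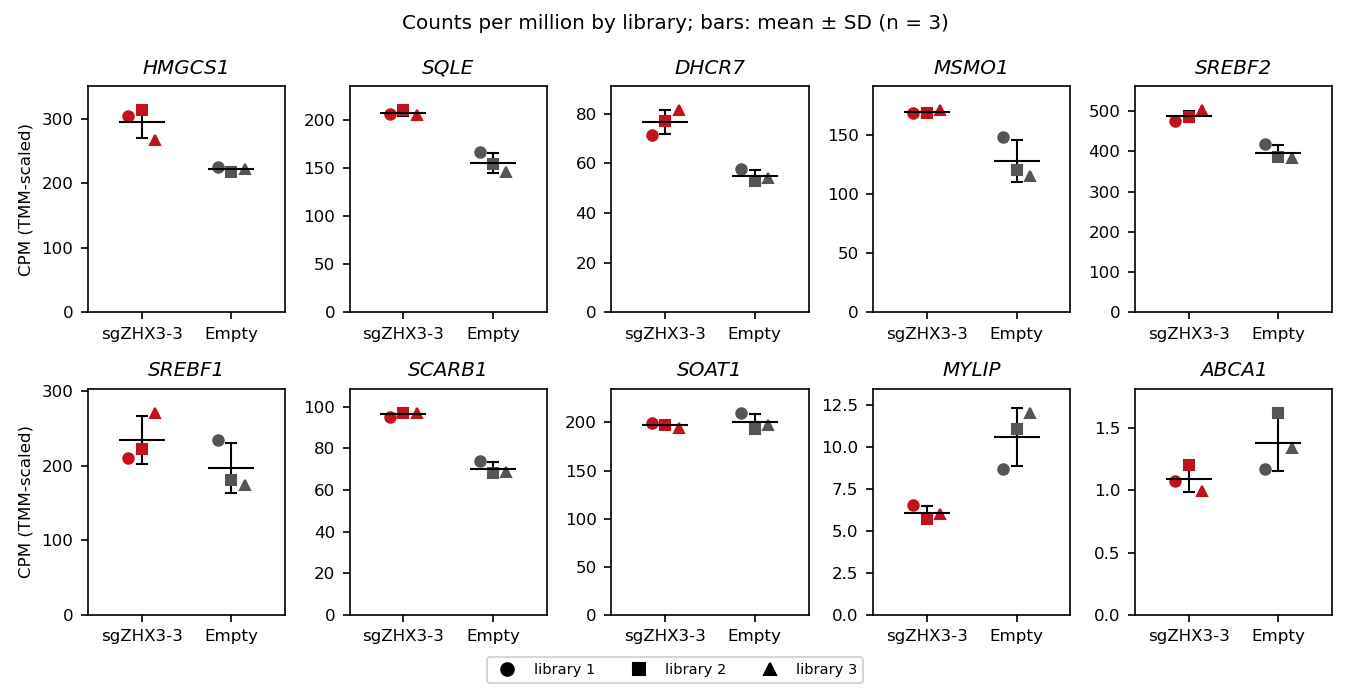
Level of 10 of the genes in CPM (TMM-scaled, linear axes from 0), with sgZHX3-3 left and Empty right in each panel; symbols mark libraries 1, 2 and 3, and bars give the mean ± SD (n = 3). The groups are apart for HMGCS1, SQLE, DHCR7, MSMO1, SREBF2, SCARB1 and MYLIP and overlap for SREBF1, SOAT1 and ABCA1.

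Among the sterol sensors the genes of SREBP2 and INSIG1 were higher, and the other 4 did not pass. SREBF2 had 476, 486 and 502 CPM in sgZHX3-3 libraries 1, 2 and 3, against 419, 387 and 384 CPM in Empty 1, 2 and 3. All sgZHX3-3 libraries lay above all Empty libraries, with log2 fold change 0.30, SE 0.0528, edgeR adjusted p = 0.00350. INSIG1, itself a target of SREBP2, had 223, 231 and 223 CPM in sgZHX3-3, against 195, 173 and 173 CPM in Empty, log2 fold change 0.33, SE 0.0574, adjusted p = 0.00353. Neither the SREBF2 nor the INSIG1 call was lost when single libraries were left out. INSIG2, the form that is not driven by SREBP2, had 43.7, 37.6 and 39.7 CPM in sgZHX3-3, against 49.0, 44.3 and 42.2 CPM in Empty, log2 fold change -0.17 ± 0.0743 SE. The groups overlapped and INSIG2 did not pass (adjusted p = 0.165). SREBF1, which encodes the SREBP1 proteins of fatty acid synthesis, had 211, 223 and 271 CPM in sgZHX3-3, against 235, 181 and 175 CPM in Empty. Its values were spread within both groups, with sgZHX3-3 library 3 and Empty 1 high, and it did not pass (log2 fold change 0.26 ± 0.130 SE, adjusted p = 0.245); without Empty 1 it did (0.41, 0.0108). SCAP, with log2 fold change 0.13 (adjusted p = 0.218), also passed only without Empty 1 among the fits with a library left out (0.19, 0.0487). LPIN1, a phosphatidate phosphatase driven by SREBP in other cells, had log2 fold change 0.04 and did not pass. In all, 0 genes of this group were lower by edgeR or DESeq2, and 1, INSIG2, at an unadjusted p below 0.05.

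Of the genes of uptake, transport and storage, the receptor SCARB1 changed most and the storage enzyme SOAT1 did not pass. SCARB1, the scavenger receptor that takes cholesteryl ester from high-density lipoprotein, had 95.3, 97.1 and 96.9 CPM in sgZHX3-3, against 73.9, 68.3 and 68.8 CPM in Empty. The sgZHX3-3 libraries were nearly equal and all higher, with log2 fold change 0.46, SE 0.0541, edgeR adjusted p = 0.000298. NPC1, which passes cholesterol out of lysosomes, had 70.2, 70.5 and 68.3 CPM in sgZHX3-3, against 61.9, 62.3 and 58.8 CPM in Empty, log2 fold change 0.19 (adjusted p = 0.0356). Its groups did not overlap, but NPC1 lost its call without sgZHX3-3 library 1 (0.0739) or 2 (0.157) and without Empty 2 (0.0953) or 3 (0.179). The NPC1 call was also lost with library totals alone (0.0739) and with a block by replicate number (0.103). TMEM97, which binds NPC1, had log2 fold change 0.09 ± 0.0684 SE, STARD4, a carrier of cholesterol through the cytosol, had log2 fold change 0.04 ± 0.0620 SE, and neither passed. SOAT1, which esterifies cholesterol for storage, had 199, 198 and 195 CPM in sgZHX3-3, against 209.9, 193 and 197 CPM in Empty. Its groups overlapped, log2 fold change -0.02, SE 0.0513, adjusted p = 0.825. In this group 0 genes were lower by edgeR, DESeq2 or at an unadjusted p below 0.05.

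In the LXR and efflux group MYLIP fell, and the other 4 genes did not pass the test. MYLIP, an LXR target also called IDOL, is a ubiquitin ligase that sends lipoprotein receptors to degradation. It had 6.53, 5.71 and 6.02 CPM in sgZHX3-3 libraries 1, 2 and 3, against 8.68, 11.1 and 12.0 CPM in Empty 1, 2 and 3, log2 fold change -0.80, SE 0.122, edgeR adjusted p = 0.00136. All sgZHX3-3 libraries were lower, Empty 1 was the lowest of the Empty libraries, and the call held with any 1 library left out. MYLIP lies on chromosome 6 from 16129125 to 16148248 on the plus strand (GRCh38). ABCA1, the exporter that loads lipid-poor apolipoprotein, had only 1.07, 1.20 and 0.996 CPM in sgZHX3-3, against 1.18, 1.62 and 1.34 CPM in Empty. The groups overlapped, log2 fold change -0.35, SE 0.199, adjusted p = 0.275. ABCG1, which exports cholesterol to high-density lipoprotein, had 30.8, 31.5 and 32.1 CPM in sgZHX3-3, against 29.7, 29.3 and 27.9 CPM in Empty. The groups did not overlap, but ABCG1 did not pass, log2 fold change 0.12, SE 0.0622, adjusted p = 0.229. The receptors themselves did not pass: NR1H2 (LXR beta) had log2 fold change 0.03 ± 0.0786 SE and NR1H3 (LXR alpha) at -0.08 ± 0.107 SE. No gene of this group was higher by edgeR or DESeq2, and 0 were higher at an unadjusted p below 0.05.

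**Figure D4:**
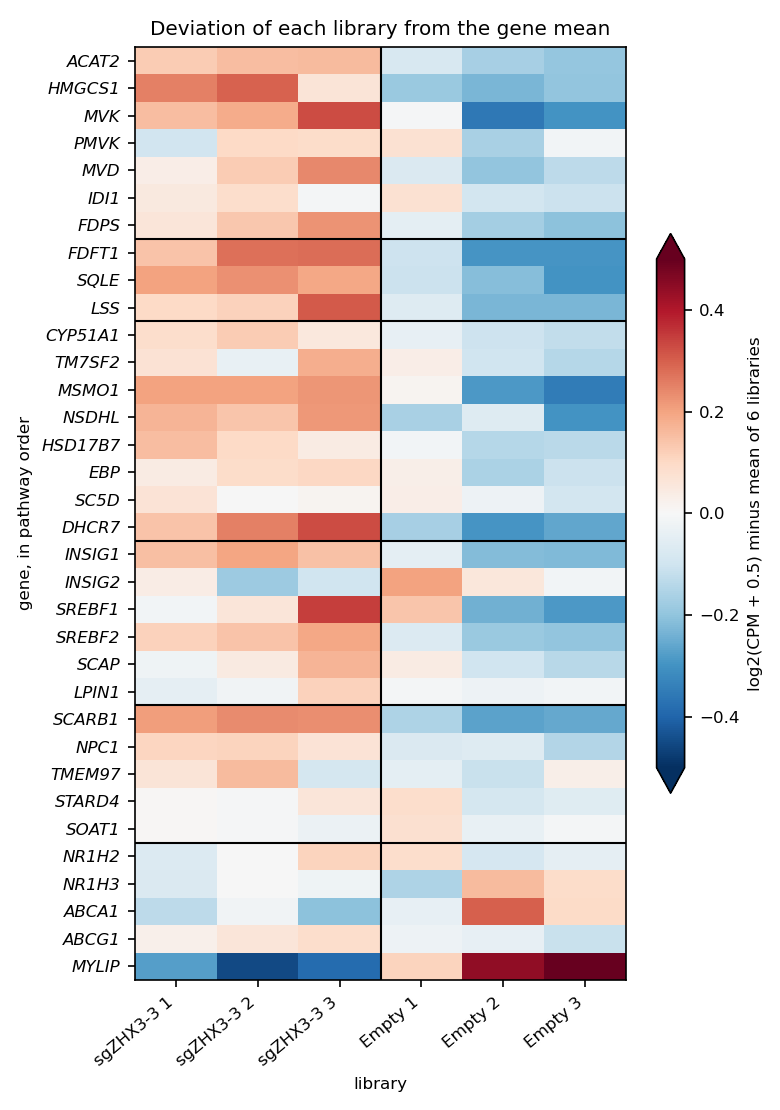
Deviation of each library from the mean of all 6, as log2(CPM + 0.5), for the 34 genes (rows, in pathway order, lines between roles) and 6 libraries (columns, sgZHX3-3 left of Empty); red is above the mean and blue below, with colours capped at 0.5. Most synthesis rows are red in sgZHX3-3, pale in Empty 1 and blue in Empty 2 and 3, and the MYLIP row is blue in sgZHX3-3 and red in Empty.

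Empty 1 lay between the other Empty libraries and sgZHX3-3 for most synthesis enzymes. It was the highest Empty library for 17 of the 18, and for 13 it was also below every sgZHX3-3 library. The mean deviation over the 18 enzymes was 0.11, 0.14 and 0.17 log2 units in sgZHX3-3 libraries 1, 2 and 3, against -0.04, -0.18 and -0.19 in Empty 1, 2 and 3. The heat shock and NRF2 sums order the Empty libraries the opposite way, with Empty 1 nearest to sgZHX3-3 in both. The part of these stress genes, and of the cell type markers that moved, in the change of the cholesterol genes was not tested. With Empty 2 and 3 both left out, the lone Empty library is assumed to vary like the others; the median over the synthesis enzymes was then 0.21. PMVK, IDI1 and SC5D, which had not passed, then turned negative (-0.04, -0.03 and -0.0050). None of the 18 enzymes passed (0 higher), and of the 34 genes 1 did, SCARB1 at 0.39 (edgeR adjusted p = 0.0402). In that setting HMGCS1 was at 0.39 (adjusted p = 0.0670), SQLE at 0.32 (0.0589), DHCR7 at 0.41 (0.0642), SREBF2 at 0.22 (0.170) and MYLIP at -0.51 (0.119). MSMO1 was at 0.20, less than 0.41 with all libraries, and SREBF1 at 0.0016. In all tested genes that setting called 209 higher and 40 lower, against 1151 and 807 with all libraries.

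The calls of all genes split differently by scaling: 58.8% were higher with TMM factors and 41.5% with library totals alone, where the median of all genes was -0.04. With library totals 14 of the 34 cholesterol genes were higher and 1 lower, and the median over the synthesis enzymes was 0.25.

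As a level in CPM per kilobase of exon in GENCODE 29, CYP51A1 stood highest, at 93.5 ± 2.39 in sgZHX3-3 and 82.6 ± 2.44 in Empty (SD, n = 3 each). Its rank is uncertain, as 2844 of its 3584 exonic bases lie in other annotated genes on the same strand. Below CYP51A1 came SREBF2 at 64.6 ± 1.77 in sgZHX3-3 and 52.5 ± 2.60 in Empty, INSIG1 at 61.8 ± 1.22 in sgZHX3-3 and 49.4 ± 3.43 in Empty, and HMGCS1 at 62.8 ± 5.24 in sgZHX3-3 and 47.2 ± 0.765 in Empty. The libraries of these 3 genes overlapped in sgZHX3-3, while in Empty every library of HMGCS1 lay below every library of SREBF2. Among synthesis enzymes MVK was lowest, at 6.69 ± 0.433 in sgZHX3-3 and 4.92 ± 0.671 in Empty, and NSDHL was next to it at 7.17 ± 0.202 in sgZHX3-3 and 5.58 ± 0.469 in Empty. All 5 LXR and efflux genes lay below every synthesis enzyme when averaged over the 6 libraries. ABCA1 was the lowest of the 34, at 0.0961 ± 0.00922 in sgZHX3-3 and 0.122 ± 0.0199 in Empty, and NR1H3 followed at 1.59 ± 0.0407 in sgZHX3-3 and 1.67 ± 0.198 in Empty. The scale uses all annotated exons of a gene, used in these cells or not.

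**Figure D5:**
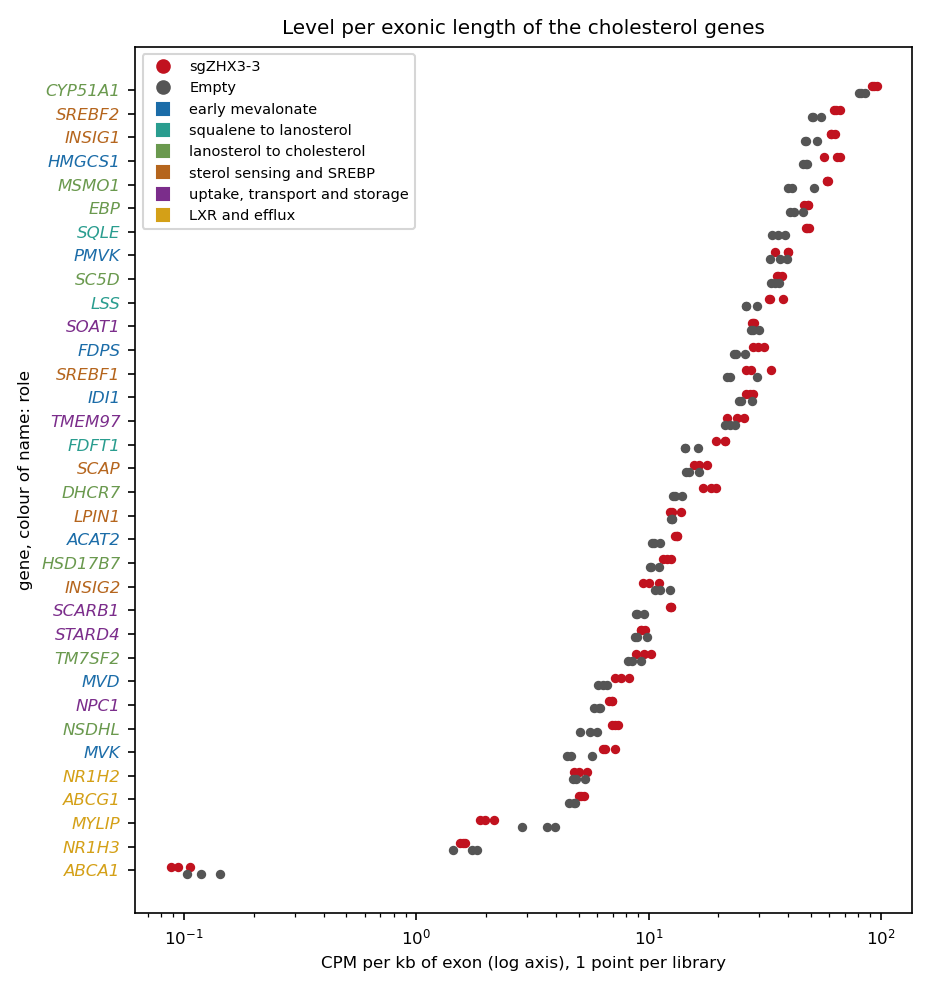
Level per exonic length of the 34 genes, in CPM per kilobase of exon on a log axis, 1 point per library (sgZHX3-3 in red above Empty in grey within each row); genes are ordered by the mean over all libraries and their names coloured by role. CYP51A1, whose count is uncertain, is at the top at 93.5 in sgZHX3-3 and 82.6 in Empty, and the LXR and efflux genes are at the bottom.

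Of 41 further genes of sterol metabolism, 36 passed the filter on low counts, among which 4 were higher and 1 lower, where 7.11% of all tested genes were higher and 4.98% lower, with a median log2 fold change of -0.0020. LRP1, a large endocytic receptor for lipoproteins and proteases, rose most, with 165, 185 and 192 CPM in sgZHX3-3, against 105, 108 and 97.3 CPM in Empty. Its log2 fold change was 0.80 ± 0.0661 (SE; edgeR adjusted p = 2.19e-05), and against Empty 1 alone it still passed (0.78, adjusted p = 0.00733). SOAT2, the second esterifying enzyme, had 3.80, 3.75 and 3.44 CPM in sgZHX3-3, against 1.95, 2.79 and 2.10 CPM in Empty, log2 fold change 0.67 (adjusted p = 0.0152); it lost its call without sgZHX3-3 library 2 (0.0663) or Empty 3 (0.0769). The lysosomal NPC2, which hands cholesterol to NPC1, had log2 fold change 0.20 (adjusted p = 0.0213) and lost its call without either of sgZHX3-3 libraries 1 (0.0519) and 2 (0.102) and of Empty 2 (0.107) and 3 (0.109). ERLIN2, which helps degrade sterol-regulated proteins, had log2 fold change 0.18 (adjusted p = 0.0432) and lost its call without the same libraries (0.0971, 0.159, 0.149 and 0.189), with library totals alone (0.0869) and with no filter (0.05003). GRAMD1C, of the Aster family that moves cholesterol from the plasma membrane, fell, with 4.77, 5.33 and 4.75 CPM in sgZHX3-3, against 6.99, 6.98 and 6.97 CPM in Empty, log2 fold change -0.50 (0.00826). Of the 8 tested among the further genes of isoprenoid and sterol metabolism, 0 were called in either direction by edgeR or DESeq2, and 0 were higher and 1 lower at an unadjusted p below 0.05. They included GGPS1, which draws farnesyl diphosphate away to geranylgeranyl diphosphate, at -0.11 (adjusted p = 0.240), and C14orf1, now named ERG28, a scaffold of the demethylation enzymes, at 0.07 (0.474).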

How the data were processed

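Stranded libraries (NEBNext Ultra Directional) were made from RNA of 6 EndoC-βH1 cultures, per the labels' protocols. The submitters' processing notes list STAR, featureCounts and hg38. Not given in the sources used here are their versions, the annotation, the strand setting and how multi-mapped reads were handled. Deposited values are whole-number counts per gene symbol, not normalised, per the file headers and the values. Group and replicate letter tied each column to its sample.

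The filter was filterByExpr of edgeR (minimum count 10, minimum total 15), which left 16199 genes. Libraries were scaled by TMM (factors 0.984 to 1.02), and CPM use these sizes. sgZHX3-3 was compared with Empty in edgeR (robust quasi-likelihood test, no covariate), with Benjamini-Hochberg adjustment over the 16199 genes and calls at 0.05. Standard errors were derived from the F statistic and fold. The members, lists, roles and tests were chosen with earlier results of these data known. All members may be named; those that passed get every library's value, of the others up to 4 per role get values, and of further sterol genes the called ones and up to 3 others are named. The promoter motifs (SRE, its core, CCAAT, E-box, GC box and the LXR DR4 element, the last in none of the 29 windows) were chosen after values were seen. Alternatives were RLE factors, library totals, no filter, limma-voom, DESeq2, a minimum of 1 CPM in 3 libraries, a block by replicate number, each library left out, Empty 2 and 3 left out, a threshold of 0.01 and, added after the data were seen, a smooth offset on GC content and length (mgcv), for which 15092 genes had values.

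The procedure was tested on simulated counts. Values of some genes of the pathway are not reported here. Of the symbols, 90.3% matched GENCODE 29, used for positions and lengths. Versions were edgeR 4.0.16, DESeq2 1.42.0, limma 3.58.1 and mgcv 1.9.3 in R 4.3.3, with Python 3.11.15 and matplotlib 3.10.9.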

Additional observations from a re-analysis of the deposited data

How the results depend on the processing

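Of the cholesterol genes, 16 were higher and 1 lower. With RLE factors, library totals, no filter, 1 CPM in 3 libraries, limma-voom, DESeq2, a threshold of 0.01 or the GC and length offset, the number higher was between 11 and 19 and the number lower stayed at 1. Leaving out 1 library at a time gave between 11 and 20 higher and 1 lower. Against Empty 1 alone the numbers were 1 and 0. None of the called cholesterol genes changed sign in any of these settings. Over all genes, where 1151 were higher and 807 lower, the numbers were between 474 and 1792 higher and between 184 and 1499 lower when libraries were left out singly, 209 and 40 against Empty 1 alone, 467 and 194 at a threshold of 0.01, and 1272 lower with library totals alone. Same-numbered libraries of the groups had correlations of their deviations of -0.14, 0.07 and -0.14. Those of differently numbered libraries ran from -0.15 to 0.23. With 3 libraries per group these values cannot decide whether libraries of the same number share a batch. With the replicate block 516 genes were higher and 239 lower over all genes, and 11 and 1 of the cholesterol genes. The cholesterol genes that lost their call with the block were MVD (edgeR adjusted p = 0.0875), FDPS (0.0628), NSDHL (0.0700), CYP51A1 (0.0979) and NPC1 (0.103). The causes of these shifts were not tested. The low count of ABCA1 and the small folds of most members limit what 3 libraries per group can show.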
